A study of Mus musculus with 16 samples.

Results

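Long exonic length in a compact gene sets apart 2 quantities that usually travel together. These are the summed length of the annotated exons of all isoforms and the length of the genomic template that RNA polymerase II must cross. The genes described here are protein-coding, lie on an autosome or the X chromosome, and have a summed exon length (called exonic length below) above 8000 bases within a genomic length, from the first to the last exon base, under 60000 bases. A gene also needed introns, so that its genomic length was above its exonic length, and a mean over the 16 libraries of at least 1 CPM (counts per 1000000 counts of the library). Of 54752 rows in the count table, 21725 were protein-coding autosomal or X-linked genes, 12179 of these reached the level threshold, and 818 met the whole rule, out of 1016 that met it before the level threshold. The only measured value in the rule is the mean over all 16 libraries, so differences between diets played no part in it.

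The libraries are bulk RNA-seq of snap-frozen liver from male 11-week-old Ercc1 d/- mice on a C57BL6J/FVBN F1 hybrid background, with 4 mice on each of 4 diets eaten ad libitum from 8 weeks of age. The high protein diet held about 194% of the standard protein with carbohydrate at 70%, the low protein diet held 70% of the protein with carbohydrate at about 112%, the low fat diet held 70% of the fat with carbohydrate at about 112%, and the control diet was standard AIN93G. Diets were made isocaloric, and every group, the control included, carries the Ercc1 mutation, so no value below compares mutant with repair-proficient liver. The ERCC1 protein works with the XPF endonuclease to cut out bulky DNA lesions and crosslinks. Animals that carry a truncated allele over a null one age early and serve as a model of progeroid disease.

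Lesions in the transcribed strand stop RNA polymerase II, and a longer template offers more places to stop. Transcription-coupled repair removes such lesions, and gene-length-dependent loss of transcript has been described in repair-deficient and aged tissue. Exonic length acts elsewhere, in how many fragments a transcript yields, how many 3′ ends and isoforms are annotated, and how an RNA survives extraction. A gene with long exons in little genomic space therefore helps to keep the 2 lengths apart, which is the question put to the 4 diets here.

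The members had a median exonic length of 9538 bases (lowest 8002, highest 41324) and a median genomic length of 36530 bases (lowest 8840, highest 59965). The 8260 other compact genes with an exonic length of 8000 bases or less had medians of 3580 and 15993 bases. The 1336 genes with long exons spread over 60000 bases or more had medians of 11211 and 121132 bases, and 1501 more had short exons over that genomic length. These 3 sets, all protein-coding, autosomal or X-linked and at 1 CPM or more, are called compact short-exon, extended long-exon and extended short-exon genes.

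**Figure D1:**
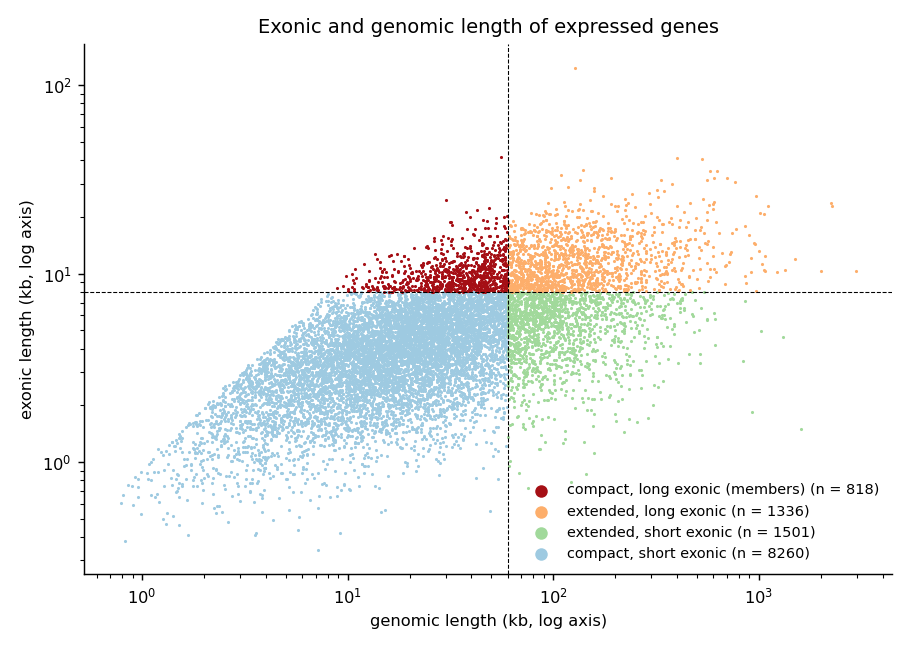
Exonic length against genomic length, both in kb on log axes, for the 818 members and the 3 comparison sets, with 1 point a gene and dashed lines at 8 kb and 60 kb. The members fill the upper left corner, and 3 single-exon genes are left out.

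Most of the exonic length of the members was not coding sequence. The longest annotated coding sequence covered a median of 21.5% of it, against 36.3% in compact short-exon genes and 28.4% in extended long-exon genes, and reached 50% in 92 of 818 members. The summed length also joins isoforms: the longest single transcript had a median of 5769 bases and exceeded 8000 bases in 180 members (22.0%). A retained-intron transcript was annotated for 699 members (85.5%), against 55.9% of compact short-exon genes and 82.4% of extended long-exon genes. In 266 members (32.5%), a single exon block held at least 50% of the exonic length. That share was 42.4% in compact short-exon, 19.7% in extended long-exon and 30.9% in extended short-exon genes. The members' longest transcripts had a median GC content of 46.4%, against 50.8% in compact short-exon genes. Extended long-exon and extended short-exon genes, at 46.9% and 47.8%, lay nearer to the members. Another gene on the same strand overlapped 195 members, and a gene on the other strand overlapped 380. Counts of overlapping genes are therefore uncertain, and whether the counting used the strand is not given in the sources used here.

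The thresholds cut through a continuous range. Just inside the exonic threshold lay Cep170b with 8002 bases and Abcd4 and Telo2 with 8006 bases each, and just outside it Ctr9 with 8000, Bcl9l with 7998 and Armcx4 with 7996 bases. On the genomic side the nearest members were Kpna4 with 59965, Slc7a2 with 59913 and Trappc12 with 59845 bases, and the nearest genes beyond were Prdm15 with 60384, Dennd6a with 60467 and Ikbkg with 60565 bases. At the level threshold Slc4a3 had 1.01 CPM and Tex9 and Cep72 had 1.02 CPM, while Cspg4 had 0.996, Col7a1 0.953 and Disp2 0.943 CPM and stayed out.

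The most extreme structures illustrate what the rule collects. D1Ertd622e had the largest exonic length, 41324 bases in 4 exon blocks, of which 1.5% was coding, and it was followed by Ube2d3, a ubiquitin-conjugating enzyme, with 24499 bases, and by Hnrnpr, an RNA-binding protein gene, with 22199 bases. Krit1, Nktr and Serbp1 came next with 21853, 21283 and 20117 bases. The members with the densest exons were Zfp646, with 9723 exonic bases in 9776, Cbx6, a Polycomb-family reader of histone marks, with 10609 in 10793, and Dclre1b, a nuclease of telomere and crosslink repair, with 8405 in 8840. Rbm4b, Yae1d1 and Plpbp completed this group, and all 6 are nearly intronless in their merged annotation.

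The promoters of 3 members are shown because these genes carry results that follow: Noct and Lss ranked first among the members that were higher and lower on high protein diet than on control diet, and Apob is the most abundant member. Each is 300 bases on the plus strand of GRCm38.p6 from RefSeq, with 250 bases before and 50 after the annotated start, at chr3:51224197-51224496 for Noct, chr10:76531355-76531654 for Lss and chr12:7977427-7977726 for Apob. Capitals mark any match, on either strand, to CACGTG (the E-box bound by clock and Myc-family factors), GGGCGG (the GC box) or TATAAA (the TATA box).
Noct: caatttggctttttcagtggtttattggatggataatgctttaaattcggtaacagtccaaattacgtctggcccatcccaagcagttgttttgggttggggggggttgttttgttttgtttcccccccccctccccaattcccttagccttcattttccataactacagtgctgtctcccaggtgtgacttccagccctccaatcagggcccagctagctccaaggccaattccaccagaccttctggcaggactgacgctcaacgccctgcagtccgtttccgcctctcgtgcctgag
Lss: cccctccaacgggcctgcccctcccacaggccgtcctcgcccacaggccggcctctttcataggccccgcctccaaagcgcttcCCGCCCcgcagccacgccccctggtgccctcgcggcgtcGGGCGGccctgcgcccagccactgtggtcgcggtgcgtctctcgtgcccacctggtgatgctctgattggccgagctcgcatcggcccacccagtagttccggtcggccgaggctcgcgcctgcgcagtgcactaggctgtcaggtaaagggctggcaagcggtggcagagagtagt
Apob: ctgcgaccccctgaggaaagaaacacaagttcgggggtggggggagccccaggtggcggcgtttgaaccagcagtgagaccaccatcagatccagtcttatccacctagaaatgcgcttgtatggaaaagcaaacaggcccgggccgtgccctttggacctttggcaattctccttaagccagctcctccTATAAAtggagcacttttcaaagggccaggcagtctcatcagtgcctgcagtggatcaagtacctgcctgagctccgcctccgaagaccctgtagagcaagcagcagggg
The Noct window held none of these letters, the Lss window held the GC box 2 times and the Apob window held the TATA box 1 time. Among 32851 promoters of all genes in the RefSeq table, 7.15% held CACGTG, 35.7% held GGGCGG and 13.6% held TATAAA. Among the 832 promoters of the 657 members that the table matched by symbol, the shares were 11.2%, 66.1% and 5.17%. The full table was not filtered by level or protein-coding type as the members were. These shares therefore do not show what is particular to long exons in compact genes. A match is a description of the letters in this window and not evidence of a binding site.

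Libraries held 35243594 to 112789127 counts, and the members took 4.04% to 4.97% of each. The median member had 837 to 3028 counts a library, so counting error was small beside the spread between mice. All 12 hepatocyte markers were detected, with a summed level of 88737 to 121011 CPM. Transcripts of 16 kidney genes were also present and ranged in sum from 1.71 CPM in high protein mouse 1 to 5388 CPM in control mouse 3, with 1.71 to 1600 CPM in high protein, 693 to 1286 CPM in low protein, 1050 to 3218 CPM in low fat and 95.0 to 5388 CPM in control livers. Fewer cells of a type and less RNA per cell cannot be told apart in these bulk samples. Control mouse 4 stood apart for the members: it held the highest of the 16 values for 383 of 818 members (46.8%), against 33.9% of compact short-exon genes, 40.9% of extended long-exon genes and 29.1% of all 17833 genes tested. It also held the lowest value for 168 members (20.5%), against 28.2% of compact short-exon genes and 26.1% of all genes, so it was extreme in both directions and leaned upward for the members. The main results against control are therefore also given without it.

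No difference between diets in the relation of expression to exonic length passed the test over mice, which a single pair of diets could not pass. For each library, the deviation of every gene's log2 CPM from its mean over the 16 libraries was regressed on log10 exonic length and log10 genomic length together, across 12179 genes, which gives 1 exonic and 1 genomic slope per mouse. The exonic slope was 0.207, -0.081, 0.009 and -0.289 in the high protein livers, -0.093, -0.035, 0.093 and -0.119 in the low protein livers and -0.060, -0.007, 0.134 and -0.245 in the low fat livers, against 0.075, -0.003, -0.135 and 0.548 in the control livers. All 4 diets overlapped, and control mouse 4 lay above every other library. The means were -0.038 ± 0.206 on high protein, -0.039 ± 0.095 on low protein and -0.044 ± 0.157 on low fat, against 0.121 ± 0.297 on control diet (SD, n = 4 each).

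The difference in exonic slope was -0.160 for high protein minus control (exact two-sided permutation p = 0.457, adjusted over 6 comparisons 0.914), -0.160 for low protein minus control (exact permutation p = 0.457) and -0.166 for low fat minus control (exact permutation p = 0.429). With 70 possible assignments of 8 mice, the smallest p this exact test can give is 0.029. Without control mouse 4 the same differences were -0.018, -0.018 and -0.024. The 3 altered diets differed from one another by no more than 0.006 in mean exonic slope, with exact permutation p-values of 0.971 or 1.

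**Figure D2:**
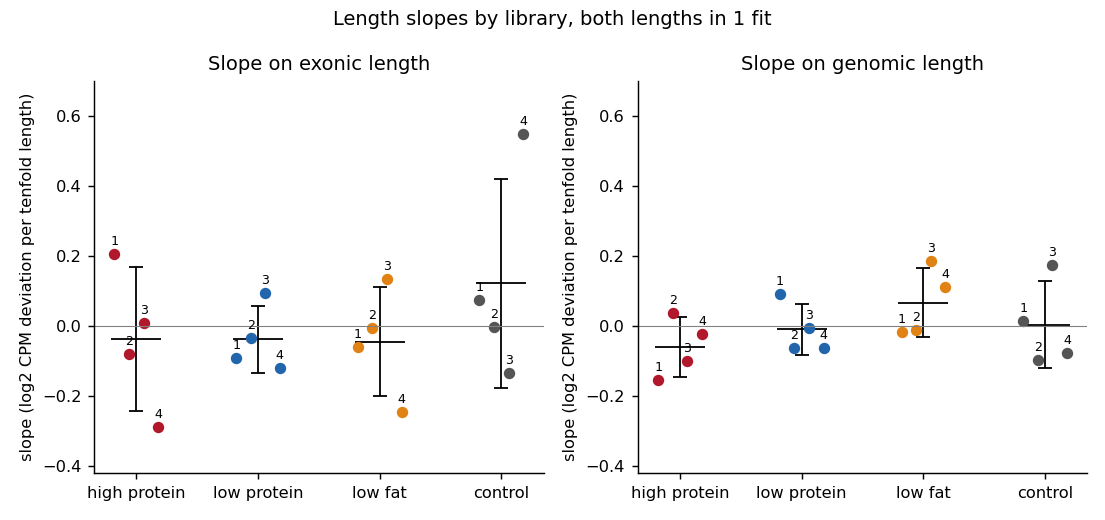
Slope of the log2 CPM deviation on log10 exonic length (left) and log10 genomic length (right), both lengths in 1 fit, for each library by diet, with mouse numbers, group means and SD (n = 4). Control mouse 4 has an exonic slope of 0.548, and in neither panel does any pair of diets separate without overlap.

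No difference in genomic slope passed the test either, with the same limit for a single pair of diets. The genomic slope averaged -0.060 ± 0.085 on high protein, -0.010 ± 0.072 on low protein and 0.067 ± 0.099 on low fat, against 0.003 ± 0.124 on control diet (SD, n = 4 each). High protein minus low fat had the widest gap, -0.126, with an exact two-sided permutation p of 0.114 (adjusted over 6 comparisons 0.549). The difference was -0.063 for high protein minus control (exact permutation p = 0.457) and 0.063 for low fat minus control (exact permutation p = 0.457). These were -0.090 and 0.036 without control mouse 4 and -0.006 and 0.120 without control mouse 3, and over all single mice left out they ran from -0.097 to -0.006 and from 0.024 to 0.120. The -0.126 ran from -0.159 to -0.087. The high protein mice had genomic slopes of -0.156, 0.038, -0.100 and -0.022, the low fat mice -0.018, -0.012, 0.184 and 0.112, and these groups overlapped through high protein mouse 2. The 2 libraries with the highest genomic slopes, low fat 3 with 0.184 and control 3 with 0.175, were also those with the most kidney transcript, 3218 and 5388 CPM, and the part of kidney RNA in this slope was not tested.

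As a group the members lay slightly lower on each altered diet than on control diet, but the size depended on 1 mouse. The median log2 fold change of the 818 members was -0.13 for high protein minus control, with 27.3% of members above 0, beside -0.03 for compact short-exon genes, with 44.9% above 0, and -0.06 for all genes tested, with 41.7% above 0. It was -0.09 for low protein minus control, beside -0.03 for compact short-exon genes, and -0.08 for low fat minus control, again beside -0.03. Extended long-exon genes had medians of -0.19, -0.11 and -0.04 in these comparisons, and extended short-exon genes -0.13, -0.09 and -0.02. Without control mouse 4 the members' medians were -0.03, -0.02 and -0.02, those of compact short-exon genes 0.03, -0.00 and -0.02, and those of extended long-exon genes -0.09, -0.04 and 0.00. The members' shares above 0 were then 44.7%, 44.0% and 45.4%, close to the 48.2%, 47.2% and 46.7% of all genes tested. Those of compact short-exon genes were 54.9%, 49.7% and 44.7%. Without control mouse 3 instead, the members' medians were -0.11, -0.09 and -0.08. Compact short-exon genes then had medians of 0.01, 0.01 and -0.02. The scaling also mattered: with upper-quartile factors on all 16 libraries the members' medians against control were -0.08 on high protein, -0.03 on low protein and -0.01 on low fat.

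The library medians show where these values come from. The median deviation of the members from their 16-library mean was -0.00, -0.00, -0.03 and -0.09 in high protein livers, 0.01, 0.00, 0.01 and -0.07 in low protein livers and -0.02, 0.02, 0.06 and -0.07 in low fat livers, against 0.03, -0.03, -0.09 and 0.25 in control livers. Control mouse 4 lay above all others and control mouse 3 close to the lowest, high protein mouse 4. Between the altered diets the members' median log2 fold change was -0.02 for high protein minus low protein, -0.03 for high protein minus low fat and 0.01 for low fat minus low protein. Leaving out 1 mouse turned the sign of each: high protein mouse 4 for the first pair, at 0.01 and 0.02, and low protein mouse 4, low fat mouse 1 or low fat mouse 3 for the last, which ran from -0.017 to 0.025. Extended long-exon genes had -0.07, -0.11 and 0.06 in the same comparisons. For the members these medians were smaller than the SD of the library medians within each diet, 0.04 on high protein, 0.04 on low protein and 0.06 on low fat.

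**Figure D3:**
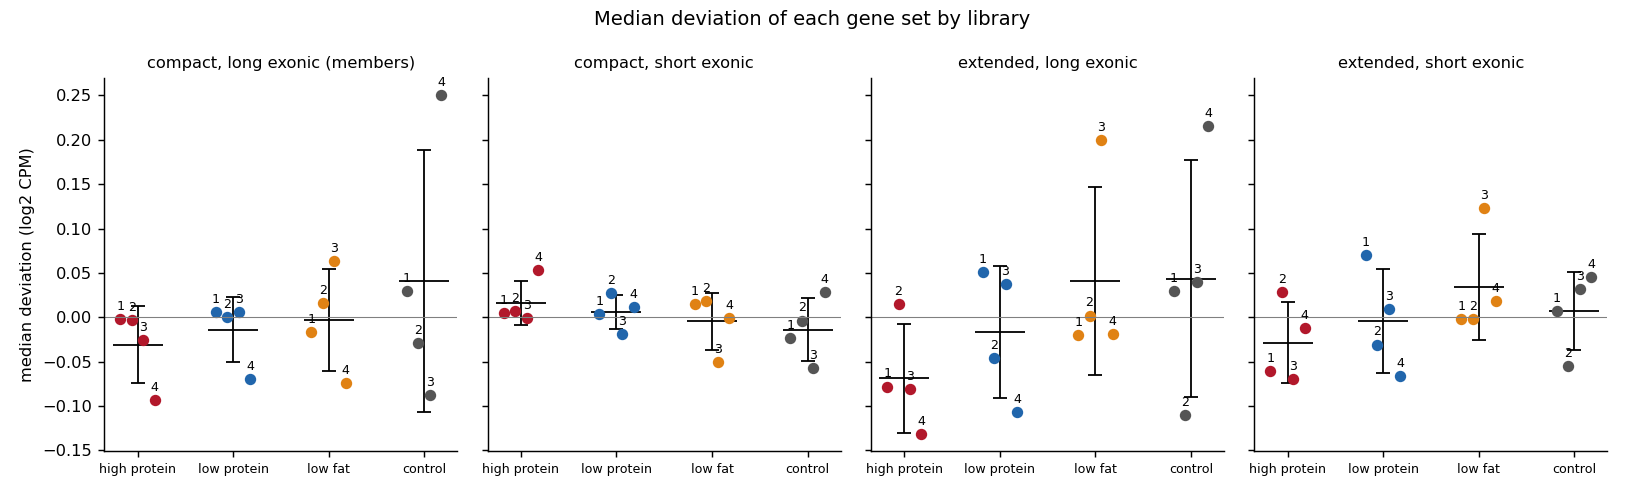
Median deviation of log2 CPM from the 16-library mean in each library, by diet, for the members and the 3 comparison sets, with mouse numbers, group means and SD (n = 4). In the members' panel control mouse 4 lies at 0.25 and all other libraries between -0.09 and 0.06.

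For high protein minus control, bins of length showed mostly lower medians at longer lengths, with a size that depended on control mouse 4 for exonic length. Among genes under 60000 bases, the median log2 fold change for high protein minus control was 0.09 at exonic lengths up to 2000 bases, -0.02 up to 4000, -0.08 up to 6000, -0.11 up to 8000, -0.11 up to 10000, -0.18 up to 12000 and -0.13 above that. Without control mouse 4 the medians were 0.08, 0.03, 0.01, -0.01, -0.02, -0.05 and -0.02, in the same order up to 12000 bases. Low fat minus control ran between -0.00 and -0.12 over these bins and, without that mouse, between -0.05 and -0.00 with no order by length. Among genes with more than 8000 exonic bases, high protein minus control was -0.05 below 20000 bases of genomic length and -0.20 above 200000 bases, and without control mouse 4 these ends were 0.04 and -0.15. The gap between the ends was thus no smaller without that mouse. Low fat minus control had medians of -0.08 and 0.02 at the same ends, and -0.03 and 0.02 without that mouse. Low protein minus control had -0.05 and -0.11 at these ends, and 0.00 and -0.07 without that mouse. With all mice its medians lay between -0.12 and -0.11 in every bin from 20000 bases up. High protein minus low fat uses no control mouse, and its medians ran 0.09, 0.02, -0.01, -0.02, -0.03, -0.02 and -0.04 over the exonic bins. Over the genomic bins of long-exon genes that comparison ran 0.06, -0.03, -0.05, -0.07, -0.10 and -0.21, the last for genes above 200000 bases. The genomic slope for this comparison, which weighs both lengths together and is tested over mice, is the -0.126 given above, with an exact permutation p of 0.114. The exonic bins are not matched on genomic length, which was also longer in the members than in compact short-exon genes. With both lengths in 1 fit, the exonic slope differed by 0.006 for high protein minus low fat (exact permutation p = 0.971). The members make up the first 3 genomic bins, in which 3 single-exon genes are also counted.

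**Figure D4:**
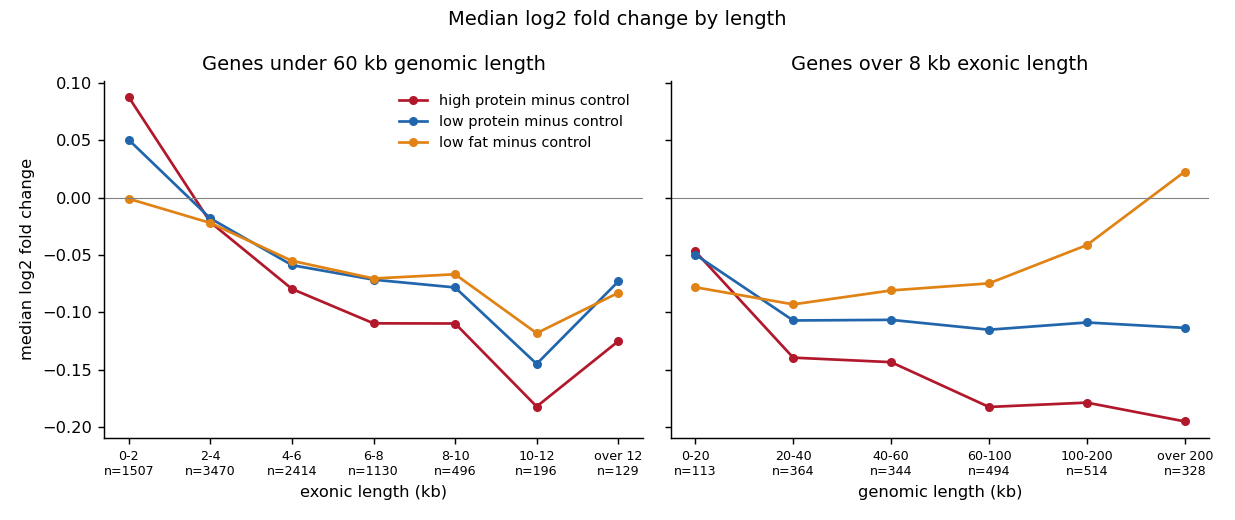
Median log2 fold change of each altered diet minus control by exonic length among genes under 60 kb (left) and by genomic length among genes over 8 kb of exons (right), with the number of genes n below each bin. At left the lines for high protein, low protein and low fat start at 0.09, 0.05 and -0.00 in the shortest bin and lie below 0 in all longer bins, and at right high protein ends at -0.20 and low fat at 0.02. All 4 control mice are included.

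Members with more coding sequence and members with long single transcripts had medians below 0 in each comparison with control, as the others did. For high protein minus control the median log2 fold change was -0.09 in the 92 members whose coding part reached 50% and -0.13 in the other 726. It was -0.11 in the 180 members with a transcript above 8000 bases and -0.13 in the other 638. For low fat minus control the coding-rich members had -0.02 and the others -0.09. Across the 818 members, Spearman's rank correlation between exonic length and log2 fold change lay between -0.06 and -0.00 over the 6 comparisons, which all share libraries, and that for genomic length between -0.13 and 0.06. For mean CPM the same correlation lay between -0.13 and 0.21, and for GC content between -0.06 and 0.13. Such correlations across genes of the same libraries are descriptions only.

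Gene by gene, no member passed edgeR's quasi-likelihood test at a Benjamini-Hochberg adjusted p of 0.05 in any of the 6 comparisons, and 0 of all 17833 genes did. At an unadjusted p under 0.05, 14 members were higher and 45 lower for high protein minus control, 1.71% and 5.50% of them, where the background was 2.48% and 3.74% of all genes. For low protein minus control the numbers were 18 and 66 (background 2.35% and 4.73%), and for low fat minus control 16 and 75 (background 3.09% and 6.13%). High protein minus low protein gave 15 higher and 11 lower (background 2.34% and 2.83%), high protein minus low fat 21 and 34 (background 4.67% and 4.41%), and low fat minus low protein 2 and 13 (background 1.01% and 1.37%). The lower shares against control were above the background in all 3 diets, in comparisons that share the same 4 control mice. With control mouse 4 left out the excess was smaller: 36 members were higher and 35 lower for high protein minus control (background 4.68% and 4.11%), 14 and 16 for low protein minus control (background 2.02% and 1.63%) and 18 and 30 for low fat minus control (background 2.43% and 3.15%). The shares of members lower, 4.28%, 1.96% and 3.67%, then lay close to the background. Groups without overlap were also counted, over all 16 libraries. By that count 5 members were higher and 9 lower in every high protein liver than in any control liver (background 1.12% and 0.841%), 12 and 10 for low protein against control (background 1.61% and 0.869%) and 6 and 13 for low fat against control (background 1.27% and 1.32%). Between altered diets the counts were 37 and 26 for high protein against low protein (background 3.15% and 3.47%), 37 and 31 for high protein against low fat (background 4.23% and 3.99%) and 16 and 16 for low fat against low protein (background 2.35% and 2.14%). The DESeq2 Wald test called 1, 10, 4, 25, 81 and 0 genes in the order of these comparisons, and among members Socs2 for low protein minus control, Slc7a2 for low fat minus control, Noct for high protein minus low protein, and Noct, Slc7a2, Chrnb2 and Eln for high protein minus low fat.

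Noct, which encodes nocturnin, a rhythmically expressed enzyme that removes a phosphate from NADP(H) and was first classed as a deadenylase, showed the widest difference of any member. The gene (ENSMUSG00000023087.15) lies at chr3:51224447-51251644 on the plus strand with 10658 exonic bases in 3 blocks. It had 151, 119, 43.5 and 157 CPM in high protein livers, 6.20, 60.8, 21.8 and 16.4 CPM in low protein livers and 10.4, 10.1, 15.9 and 15.1 CPM in low fat livers, against 27.96, 31.0, 47.8 and 24.1 CPM in control livers. Every high protein liver lay above every low fat liver, while the high protein and control groups met through high protein mouse 3. High protein was 9.14-fold above low fat, a log2 fold change of 3.19 ± 0.56 (SE), with an adjusted p of 0.28 in edgeR and 5.2e-06 in DESeq2. For high protein minus control the log2 fold change was 1.84 ± 0.53 (adjusted p = 0.76), and for high protein minus low protein 2.16 ± 0.54 (adjusted p = 0.89).

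Slc7a2, the cationic amino acid transporter CAT2 that brings arginine and lysine into hepatocytes, was lower in every liver on the low protein and low fat diets than in any liver on the high protein and control diets. The gene (ENSMUSG00000031596.15, chr8:40862396-40922308, plus strand) had 1506, 1079, 792 and 1424 CPM in high protein livers, 494, 608, 508 and 649 CPM in low protein livers and 575, 380, 447 and 504 CPM in low fat livers, against 755, 1035, 827 and 2064 CPM in control livers. The lowest high protein or control value, 755 CPM, lay above the highest low protein or low fat value, 649 CPM. The log2 fold change was 1.33 ± 0.29 for high protein minus low fat (adjusted p = 0.28), 1.09 ± 0.29 for high protein minus low protein (adjusted p = 0.89) and -1.30 ± 0.29 for low fat minus control (adjusted p = 0.53). For low protein minus control it was -1.05 ± 0.28, and -0.65 without control mouse 4.

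Lss and Fasn, 2 enzymes of lipid synthesis, averaged lower on high protein than on control diet. Lss, lanosterol synthase of the cholesterol pathway (ENSMUSG00000033105.12, chr10:76531588-76557138), had 44.5, 46.5, 42.2 and 34.1 CPM in high protein livers, against 70.8, 53.9, 63.6 and 63.7 CPM in control livers, with no overlap. It averaged 51.1 ± 6.59 CPM on low protein and 46.9 ± 4.54 CPM on low fat (SD, n = 4 each). High protein was 1.51-fold below control (log2 fold change -0.59 ± 0.13, adjusted p = 0.76), and -0.50 to -0.66 when any 1 mouse was left out. Fasn, fatty acid synthase, had 283, 284, 209 and 124 CPM in high protein livers, 294, 295, 867 and 798 CPM in low protein livers and 592, 573, 512 and 792 CPM in low fat livers, against 1167, 520.5, 983 and 139 CPM in control livers. High protein livers lay below all low protein and low fat livers but overlapped control through mouse 4, and the log2 fold change for high protein minus control was -1.64 ± 0.52 (adjusted p = 0.76), or -1.99 ± 0.40 without that mouse (adjusted p = 0.30).

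Eln, which encodes the elastic fibre protein elastin, lay higher on the 2 high-carbohydrate diets. Its levels were 2.87, 1.98, 4.00 and 2.99 CPM in high protein livers, 4.11, 4.30, 4.93 and 4.77 CPM in low protein livers and 5.11, 6.22, 5.07 and 4.82 CPM in low fat livers, against 3.28, 3.11, 2.67 and 2.58 CPM in control livers. Neither high-carbohydrate group overlapped the control or high protein group. The log2 fold change was 0.87 ± 0.20 for low fat minus control (adjusted p = 0.53) and -0.84 ± 0.20 for high protein minus low fat (adjusted p = 0.36). Socs2, a feedback inhibitor of growth hormone signalling, had 10.9, 22.9, 18.3 and 22.8 CPM in low protein livers, against 60.5, 73.3, 28.3 and 361 CPM in control livers, a log2 fold change of -2.80 ± 0.61 (adjusted p = 0.68), or -1.55 without control mouse 4. Low protein lay below all control livers.

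**Figure D5:**
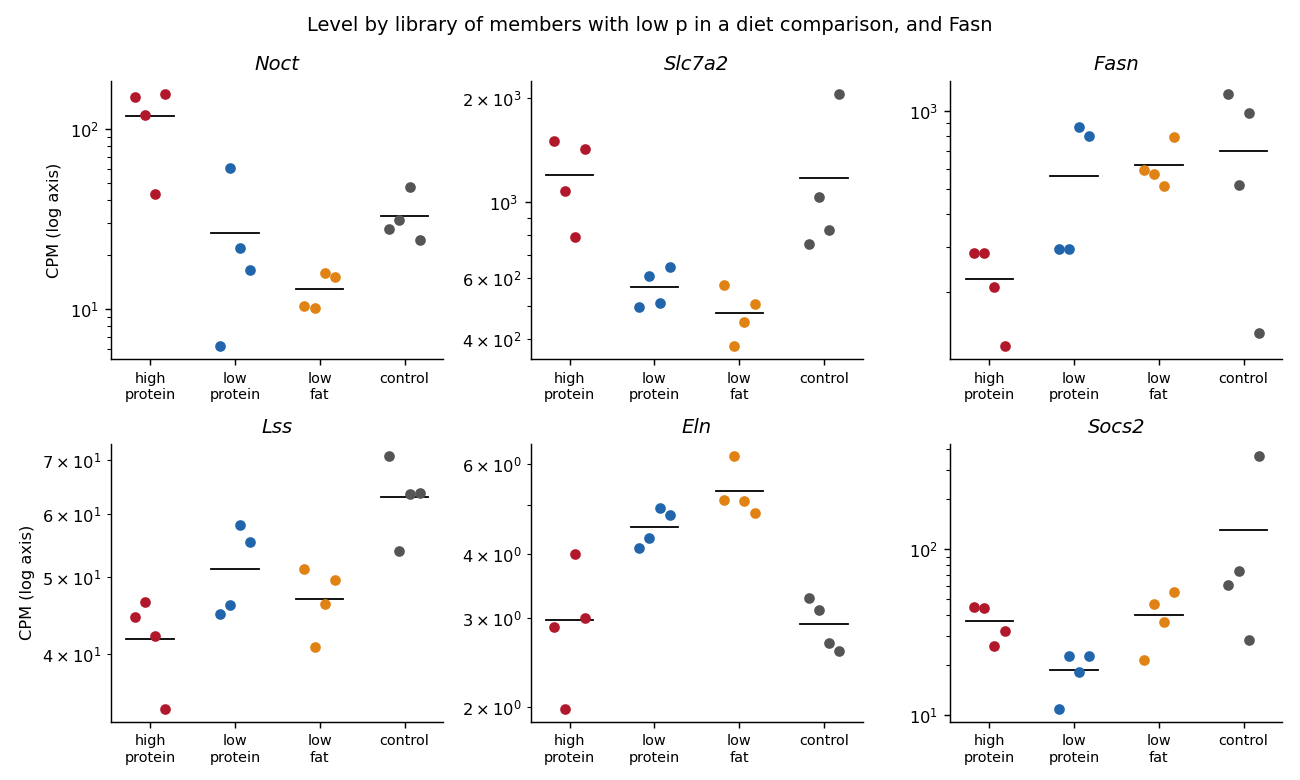
CPM on log axes in each of the 16 libraries by diet for Noct, Slc7a2, Fasn, Lss, Eln and Socs2, with a line at each group mean. High protein livers lie above low fat livers for Noct and Slc7a2 and below them for Fasn and Eln, and the highest Slc7a2 and Socs2 values, 2064 and 361 CPM, are both control mouse 4.

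Further members ranked first in the comparisons without passing the adjusted test. Against control, Brca2, the homologous recombination mediator, averaged 8.34 ± 1.77 CPM on high protein and 5.26 ± 0.87 CPM on control diet (SD, n = 4 each), and Igsf10 1.5 ± 0.30 and 0.78 ± 0.34 CPM. Camkk2, a kinase upstream of AMPK, averaged 9.87 ± 0.53 CPM on low protein and 7.04 ± 1.02 CPM on control diet, and Arhgap30, a GTPase-activating protein, 5.16 ± 0.63 and 3.14 ± 0.83 CPM. Helz2, a helicase that coactivates PPAR receptors, averaged 122 ± 27.4 CPM on low fat and 74.1 ± 18.7 CPM on control diet. Naa35, a subunit of the NatC acetyltransferase, averaged 34.6 ± 1.78 CPM on low fat and 48.8 ± 11.1 CPM on control diet, and Hspbap1 2.94 ± 0.71 CPM on high protein and 5.55 ± 2.14 CPM on control diet.

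A few of these rankings rest on control mouse 4. Arid5a, an RNA-binding protein gene, had 1.02 to 1.70 CPM in high protein livers, against 1.51, 1.71, 1.86 and 21.7 CPM in control livers, and its log2 fold change of -2.30 became -0.33 without that mouse. Bcl2l11, the pro-apoptotic factor BIM, had 4.23 to 6.29 CPM in low fat livers, against 6.47, 6.33, 10.0 and 64.0 CPM in control livers, with -2.08 and -0.60. Resf1 averaged 19.5 ± 4.49 CPM on low protein and 49.7 ± 40.1 CPM on control diet, with -1.35 and -0.62.

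Between the altered diets, Vcam1, an adhesion molecule for leukocytes, averaged 15.9 ± 4.06 CPM on high protein and 9.41 ± 0.88 CPM on low protein (SD, n = 4 each). Man2a2, a Golgi mannosidase, averaged 26.7 ± 4.89 and 37.6 ± 4.28 CPM, and Exoc1, of the exocyst, 12.7 ± 2.03 and 16.8 ± 1.64 CPM. Chrnb2, a nicotinic receptor subunit, averaged 9.01 ± 2.33 CPM on high protein and 4.12 ± 0.35 CPM on low fat, without overlap, at a log2 fold change of 1.13 ± 0.29 (edgeR adjusted p = 0.36). Gfpt1, the entry enzyme of hexosamine synthesis, averaged 27.1 ± 6.24 CPM on high protein and 46.5 ± 15.0 CPM on low fat, and Stra6l, a retinol-binding protein receptor, 125 ± 21.9 and 201 ± 54.7 CPM.

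Low fat and low protein livers, which share high carbohydrate, gave the fewest genes at an unadjusted p under 0.05, 425 of 17833. Npc1, the lysosomal cholesterol exporter, averaged 139 ± 17.0 CPM on low fat and 176 ± 12.7 CPM on low protein, and Nr2f2, a nuclear receptor, 22.8 ± 4.90 and 34.8 ± 6.73 CPM (SD, n = 4 each). Hspa4l, an HSP110-family chaperone, averaged 31.1 ± 4.54 and 23.0 ± 4.02 CPM, Tubgcp4 11.5 ± 1.37 and 9.28 ± 0.76 CPM, and Slc5a3, a myo-inositol transporter, 24.4 ± 5.78 and 14.1 ± 1.24 CPM. The predicted gene Gm42715 averaged 0.60 ± 0.06 and 1.33 ± 0.37 CPM. Gm42715 overlaps 3 genes on its strand and Slc5a3 overlaps 2, so their levels are uncertain. The adjusted p of each was 1.

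The most abundant members per kb included several secreted or transport proteins of the liver. In CPM per kb of exonic length, Apob, the structural protein of very-low-density lipoprotein, averaged 343 over the 16 libraries, antithrombin (Serpinc1) 207, ceruloplasmin (Cp) 109, Slc7a2 93.4 and the canalicular export pump Abcc2 69.3. Lamp2, Dcaf11, Eif4g2, Fasn and Hadha followed with 59.8, 52.6, 50.1, 48.1 and 40.5, while the median member had 2.72. Apob (chr12:7977648-8016835) averaged 4526 ± 707 CPM on high protein, 5257 ± 758 CPM on low protein and 5069 ± 278 CPM on low fat, against 4281 ± 1189 CPM on control diet (SD, n = 4 each). The log2 fold changes of Serpinc1 were within 0.05 of 0 in all 6 comparisons. Cp averaged 830 ± 72.2 CPM on high protein and 1152 ± 36.8 CPM on low fat, and Hadha, of mitochondrial fatty acid oxidation, 388 ± 48.0 CPM on high protein and 315 ± 31.4 CPM on control diet, neither past the adjusted test.

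Grouped by function, none of the 7 lists examined held a gene that passed the adjusted test of edgeR in any comparison. Of 43 chromatin regulators and coactivators 10 were members, with a median log2 fold change of -0.10 for high protein minus control, -0.16 for low protein minus control and -0.17 for low fat minus control, and the whole list had -0.13, -0.12 and -0.17. Leaving out control mouse 4 turned the members' medians to 0.14, 0.10 and 0.06, and those of the list to 0.05, 0.07 and 0.04. Chd4 and Chd3, the remodelling ATPases of the NuRD complex, were its most abundant members, and Chd4 averaged 127 ± 29.4 CPM on high protein and 137 ± 54.1 CPM on control diet. Baz2a and Hcfc1 averaged 57.4 ± 6.03 and 35.5 ± 4.35 CPM on high protein, against 58.9 ± 19.8 and 48.3 ± 16.8 CPM on control diet. For high protein minus control, Chd4, Baz2a and Hcfc1 had log2 fold changes of -0.11, -0.04 and -0.45. Without control mouse 4 these were 0.18, 0.22 and -0.18. Of 29 genes of transcription, RNA binding and translation 3 were members, with a list median of -0.14 for high protein minus control, or 0.09 without control mouse 4. The splicing speckle proteins Srrm2 and Son averaged 336 ± 41.6 and 222 ± 16.9 CPM on high protein, against 381 ± 144 and 298 ± 167 CPM on control diet, where control mouse 4 had 596 and 548 CPM.

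The 6 members among 26 genes of lipid, nutrient and insulin metabolism, which include Apob and Fasn, had a median of -0.22 for high protein minus control, 0.09 for low protein minus control and 0.12 for low fat minus control. When control mouse 4 was left out the members' medians were -0.06, 0.10 and 0.13. Over the whole list the medians were -0.32, -0.15 and -0.09 with all mice and -0.03, -0.02 and 0.05 without that one, and 0 genes were higher and 4 lower at an unadjusted p under 0.05 for high protein minus control with all mice. The transporter Abca2 averaged 34.4 ± 12.52 CPM on high protein and 56.3 ± 8.44 CPM on low fat.

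Among 30 matrix, adhesion and surface genes 9 were members, with medians of -0.07, -0.07 and 0.08 in the comparisons of high protein, low protein and low fat with control (-0.15, -0.04 and 0.05 without control mouse 4), and -0.25 for high protein minus low fat, where the whole list had -0.26 with 0 higher and 3 lower at an unadjusted p under 0.05. Plxnb1, Stab1 and Agrn were among its most abundant members. Of 30 cytoskeletal genes 28 could be tested, with a list median of -0.14 for high protein minus low fat, and Tln1 and Flna were among its members. Tln1, which links integrins to actin, averaged 110 ± 8.20 CPM on high protein and 136 ± 16.2 CPM on low fat. From 25 ubiquitin and trafficking genes only Sec16a and Ranbp2 were members, with 113.5 ± 8.62 and 103 ± 10.4 CPM on high protein, against 129 ± 38.4 and 139 ± 70.8 CPM on control diet. The median of that list for high protein minus control was -0.17, or -0.04 without control mouse 4. In that comparison Sec16a and Ranbp2 had log2 fold changes of -0.19 and -0.43, and 0.03 and -0.02 without that mouse.

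Of 24 genes of transcription-coupled and large-protein DNA repair 6 were members, with medians of -0.06, -0.16 and -0.28 against control on high protein, low protein and low fat. The whole list had -0.26, -0.19 and -0.25. Omitting control mouse 4 gave the members -0.07, -0.05 and -0.10 and the list -0.12, -0.14 and -0.13. Uvssa, which stabilises stalled polymerase complexes for transcription-coupled repair, averaged 22.1 ± 1.23 CPM on high protein, 19.4 ± 3.02 CPM on low protein and 18.1 ± 1.42 CPM on low fat, against 22.2 ± 8.09 CPM on control diet (SD, n = 4 each). In that order, the log2 fold changes of Uvssa against control were -0.00, -0.19 and -0.29, and 0.28, 0.08 and -0.03 without control mouse 4. Rif1 and Fancm averaged 16.9 ± 1.75 and 4.88 ± 0.54 CPM on high protein, against 20.8 ± 6.45 and 6.30 ± 1.73 CPM on control diet. Their log2 fold changes were -0.30 and -0.37, and -0.08 and -0.18 without control mouse 4. 

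Some members followed the kidney transcripts. Kl, the FGF23 co-receptor of renal tubules, had 0, 35.6, 9.55 and 19.2 CPM in high protein livers, 28.7, 19.2, 15.6 and 10.9 CPM in low protein livers and 26.4, 39.8, 68.8 and 73.7 CPM in low fat livers, against 4.27, 2.33, 102 and 6.72 CPM in control livers. Slc12a3, the thiazide-sensitive sodium chloride cotransporter and 1 of the 16 kidney markers, had 0.15 CPM in high protein mouse 1 and 107 CPM in control mouse 3. Both genes were named after their values were seen. The libraries in which they were lowest and highest were those with the least and the most kidney transcript. Without control mouse 3, edgeR called 109 of 17973 genes and 5 of 818 members for low fat minus control, a similar share. Of these members Far1, Lpl and Tmco3 were higher and Slc7a2 and Naa35 were lower, at edgeR adjusted p-values of 0.043 to 0.047. Far1, Lpl and Tmco3 had their highest value, 42.01, 256 and 25.1 CPM, in control mouse 3, and the part of kidney RNA in their differences was not tested.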

How the data were processed

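Liver RNA of 16 mice, 4 on each diet, was sequenced with a directional kit. The deposited table holds raw read counts per gene beside exon lengths. The tools named in the submitters' processing notes are STAR 2.7.0f, Trimmomatic 0.39, Subread 1.6.4 with featureCounts, and edgeR 3.32.1, on GRCm38.p6. Their settings are not given in the sources at hand. All 54752 summed lengths equalled the merged exon coordinates of the same table, which also gave the spans. Transcripts and coding sequences came from GENCODE M21, which 53861 rows matched with the same version and 862 without it. Of the 818 members, 809 matched it with the same version. The members and lists were chosen with earlier results of these data known.

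Counts were tested with edgeR 4.0.16 in R 4.3.3 (filterByExpr by diet, TMM factors, 1 quasi-likelihood fit to all 16 libraries, Benjamini-Hochberg adjustment over 17833 genes, threshold 0.05). DESeq2 1.42.0 was an alternative. CPM printed for a gene are counts divided by the library's TMM-scaled total and multiplied by 1000000. The level threshold, the genes named at it and the summed marker levels used the library's total without TMM factors. Deviations and slopes used log2 CPM with TMM factors and a prior count of 2. Group differences in slope were tested with exact two-sided permutation of the 8 mice. Values are mean ± SD, and a log2 fold change has its SE. Depth was 35243594 to 112789127 counts. The labels number the replicates of a diet and say no more of them, so a p-value reflects how much these samples vary, which may be partly technical.

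Named genes were the 10 members highest per kb, the 3 higher and 3 lower with the smallest p in each comparison, the 6 longest and the 6 with the densest exons, those at each threshold, and up to 4 of the highest members of each list. Coding-rich was defined from the longest annotated coding sequence and not, as first planned, from protein sequences, which were not used here. Other normalisations, filters, lengths, thresholds and samples were tried. The procedures were tested on simulated data. A few named genes are not reported here.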

Additional observations from a re-analysis of the deposited data

Results flagged for a closer look

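Of 280 group values examined, for the named members and the library summaries, 25 lay apart from the other 3 mice of their diet by Dixon's criterion for 4 samples (a gap of the highest or lowest mouse to its nearest neighbour that takes up most of the group's range), which chance gives about 1 time in 20. Control mouse 4 held 13 of them. Its CPM were 21.7 for Arid5a, 88.4 for Baz2a, 64.0 for Bcl2l11, 33.6 for D1Ertd622e, 19.0 for Dclre1b, 840.4 for Eif4g2, 3.25 for Gm42715, 136.4 for Plpbp, 35.1 for Rbm4b, 109.7 for Resf1, 361 for Socs2, 548 for Son and 596 for Srrm2, each the highest of its group.

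The 12 others fell on 8 libraries. Control mouse 3 had 19.9 CPM of Cbx6 and 36.0 CPM of Slc5a3. Low fat mouse 3 had 7.43 CPM of Fancm and 13.5 CPM of Tubgcp4. High protein mouse 4 had 15.8 CPM of Abca2 and 91.8 CPM of Stra6l, high protein mouse 3 had 1.16 CPM of Gm42715 and high protein mouse 2 had 50.4 CPM of Stab1. Low protein mouse 1 had 735 CPM of Lamp2, low protein mouse 3 had 0.768 CPM of Gm42715, and low protein mouse 4 had 12.2 CPM of Rif1. The members' median deviation was also apart in low protein mouse 4, at -0.069. The cause of these values was not tested.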

How the results depend on the processing

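Of the comparison results recomputed under the alternatives, 546 stayed on their side of the test's threshold with the same sign, stayed within 1.5 times for counts of genes or, for medians with no test, moved by less than 1 SD of the library values, whether or not their sign changed. A further 17 moved and 35 reversed. For the slopes, a single pair of diets could not pass the adjusted test, so staying on its side of the threshold is no sign of stability. For the members' medians against control, the SD includes control mouse 4 and was 0.148 in control livers. Staying within it is therefore no sign of stability either. Size is not part of this count: the exonic slope differences against control ranged from -0.245 to -0.018 on high protein when 1 library was left out, and several named genes shrank without control mouse 4. Of the named genes' values, 428 kept their sign and their side of the edgeR threshold under other scaling, the block, the kidney covariate or fewer libraries, and 4 came to pass it (Slc7a2 and Naa35 for low fat minus control, without control mouse 3 and in the smaller set of libraries below). The counts of called genes were 0 in edgeR. DESeq2 called 1 gene for high protein minus control, 10 for low protein minus control, 4 for low fat minus control, 25 for high protein minus low protein and 81 for high protein minus low fat, and 1, 1, 1 and 4 members in the last 4 of these. A fit to only the high protein and low fat libraries called 16 genes and 1 member, Noct. Without control 3, control 4 and high protein 1 together, a choice made after seeing the data, low fat minus control had 625 called genes of 18379. Among the 818 members 26 were called, a similar share, with 24 higher, Kl and Slc12a3 among them, and 2 lower. Control mice 1 and 2, which remained, had 176 and 95.0 CPM of kidney transcript, against 1050 to 3218 CPM in low fat livers. The part of kidney RNA in these calls was not tested. Leaving out 1 library at a time gave 0 to 109 genes and 0 to 5 members for low fat minus control, 0 to 2 genes for high protein minus low protein and 0 to 1 for high protein minus low fat.

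The exonic slope differences between altered diets lie near 0 and changed sign easily. For high protein minus low protein, high protein minus low fat and low fat minus low protein they were -0.050, -0.082 and 0.032 with the longest annotated transcript as length, -0.060, -0.147 and 0.087 with each length alone, -0.021, -0.034 and 0.013 with mean log2 CPM in the fit, -0.0089, -0.016 and 0.0072 without the members, -0.040, -0.071 and 0.031 by Huber regression and -0.073, -0.122 and 0.049 with the longest protein-coding transcript, added after seeing the data. With genes passing filterByExpr, high protein minus low protein was -0.0029. Without the 3 libraries together the first pair were -0.082 and -0.076, and genomic slope differences were 0.014 for high protein minus control and 0.032 for low protein minus control. Leaving out 1 library gave -0.082 to 0.084, -0.076 to 0.090 and -0.065 to 0.061 for the 3 exonic differences, and -0.047 to 0.044 for the genomic slope of low protein minus control. The cause was not tested.

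The labels do not say whether equal replicate numbers pair the mice, and pairing was not tested. Of 24 same-numbered correlations of deviations 8 exceeded 0.1, with a median of 0.039, against -0.005 for differently numbered mice. A replicate block gave 0 called genes in every comparison and members' medians of -0.11, -0.07 and -0.07 for high, low protein and low fat minus control. GC content came from the longest transcript, since no genome sequence was used here. Depth left a median of at least 837 counts per member, so 4 mice per diet, not counting error, set the precision.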
